A study of Mus musculus with 27 samples.

Results

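The comparison described here is the response of Raptor-deficient mouse CD4+ T cells to stimulation through CD3 and CD28. It rests on 6 of the 27 libraries of the series, 3 stimulated and 3 resting, chosen by their titles. Gene counts were compared for 10493 genes with enough counts, out of 26801 in the deposited table once Rn45s, the 45S ribosomal RNA precursor, was left out.

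The cells came from B6 mice that carry the Cd4-cre transgene Tg(Cd4-cre)1Cwi and floxed Rptor alleles, tm1.1Dmsa (Raptor KO). All 6 libraries share this genotype, so the deletion itself is not compared here except where wild-type (WT) B6 CD4+ cells are named. Cd4-driven Cre is active from the thymus onward, before cells reach the lymph node and spleen. Whether the 3 libraries of a group stem from different animals is not stated in the labels. The p-values therefore cover the variation among these samples alone, and that variation may be technical. CD4+ cells were enriched by magnetic negative selection from pooled lymph node and spleen. Resting cells were kept 48 h in medium with IL-7 (5 ng/ml), a survival cytokine for naive T cells. Stimulated cells were cultured for 48 h on plates coated with anti-CD3 and anti-CD28 (10 µg/ml). Cells that bound neither MFG-E8 nor 7-AAD, which mark dying and dead cells, were then sorted. IL-7 and the antibodies therefore differ together between the groups, and their parts cannot be told apart. The 6 WT CD4+ libraries used for contrast had the same cultures, without Cre or floxed alleles.

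Raptor is the subunit that defines the kinase complex mTORC1 and brings its substrates to the kinase. In T cells mTORC1 is activated by the antigen receptor, costimulation and amino acids, and it promotes protein synthesis, ribosome production, glycolysis, and lipid and nucleotide synthesis. A naive T cell that is stimulated leaves quiescence, grows, enters the cell cycle and begins to make cytokines.

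Library totals ran from 8640699 to 13226478 counts, of which Rn45s took 81.1% to 87%. The remainder was 1630933 to 1969685 counts per library, so a gene at 1 CPM, the count per 1e6 counts of tested genes, was seen in few reads. Resting library 3 stood apart from the other 2 resting libraries. Protein-coding genes held 24.1% of its counts outside Rn45s, against 33% and 34.6% in resting libraries 1 and 2 and 33.4% to 46.5% in the stimulated ones. Small nuclear RNA held 24.1% of its counts, against 11.5% to 17.1% in the other 5. The first principal component of the 6 libraries, 75.2% of the variance, separated stimulated from resting cells. The second, 9.92%, set resting library 3 at -44.2 and the other 5 between -7 and 31. Without resting library 3, the genes called numbered 5043 in place of 5453.

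**Figure D1:**
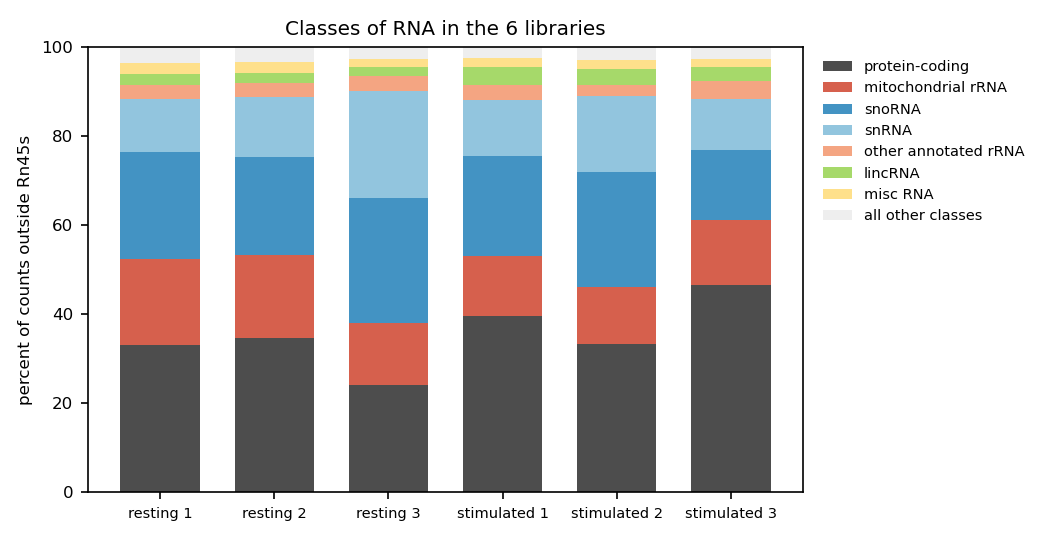
Share of the counts outside Rn45s held by each class of RNA, in percent, for the 3 resting and 3 stimulated Raptor KO CD4+ libraries. Resting library 3 has the smallest protein-coding share, 24.1%, and the largest snRNA share, 24.1%.

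The targeted gene and cell markers were read beside the labels. Rptor (GRCm38 chr11:119602905-119899576) was read at 30.7, 27.8 and 23.5 CPM in resting libraries 1 to 3 and 25.1, 24.1 and 17 CPM in the stimulated ones. The groups overlapped, and the log2 fold change was -0.33 ± 0.21 (standard error; adjusted p = 0.187). The Rptor means at rest and stimulated were 27.3 and 22.1 CPM in these cells and 34.5 and 26.3 CPM in WT CD4+ cells. A count over the whole gene includes exons outside the deleted part, so it does not check the deletion. Cd4, the coreceptor that defines the subset, stood at 212, 311 and 215 CPM at rest and 187, 229.5 and 217 CPM stimulated, and its groups overlapped. The 6 CD4 T cell identity genes summed to 769, 949 and 826 CPM at rest and 461, 542 and 512 CPM stimulated. Of these, 4 fell, Cd3e (-0.79), Cd3d (-1.11), Cd3g (-1.16) and Trbc2 (-1.44), and Cd4 (-0.22) and Zbtb7b (-0.47) did not pass. The CD8 coreceptor genes Cd8a and Cd8b1 summed to 7.34, 5.88 and 4.69 CPM at rest and 2.85, 4.14 and 4.25 CPM stimulated.

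Markers of other cells were also read. The 10 B cell markers summed to 96.8, 139 and 134 CPM at rest and 31.9, 46.2 and 40.1 CPM stimulated. Most of this was Ighm, at 85.4, 123 and 121 CPM at rest and 23.4, 26.9 and 32.6 CPM stimulated. The 2 with enough counts fell, Ighm by a log2 fold change of -1.98 and Cd79a by -1.65, the latter not called without resting library 2, resting library 3, stimulated library 1 or stimulated library 3. The 17 myeloid and dendritic markers summed to 54.1, 55.1 and 52.4 CPM and 46.7, 51 and 54.8 CPM, mostly from Ctss, with Itgax, Cd14, Clec9a and Siglech at 0 counts in all 6 libraries. The 10 NK and gamma-delta T cell markers summed to 52.7, 39 and 20.3 CPM and 17.1, 16.5 and 8.03 CPM, and 4 of 5 tested fell. The 6 erythroid and stromal markers summed to 58.1, 81.8 and 56.3 CPM and 13.7, 28.3 and 8.97 CPM, mostly from Pecam1, which fell (-2.41). The B cell, NK cell and stromal marker sums were thus lower with stimulation, the B cell and stromal sums mostly through 1 gene each. These sums stand beside the fallen genes described below, and their part in those falls was not tested. In bulk RNA, fewer cells of a type and less RNA per cell cannot be told apart.

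Stimulation changed 5453 genes, 52% of those tested. Of these, 2924 (27.9%) rose and 2529 (24.1%) fell, by edgeR's quasi-likelihood test with Benjamini-Hochberg adjustment at 0.05. The median log2 fold change over all tested genes was 0.04. Risen genes had a median log2 fold change of 1.31, with 795 up at least 4-fold and 224 at least 16-fold. Fallen genes had a median of -1.21, with 543 down at least 4-fold and 97 at least 16-fold. The 3 stimulated and 3 resting values did not overlap in 5116 of the called genes. Without overlap stood 57.3% of all tested genes. With Rn45s kept in the library totals, 3261 genes were called, 1571 higher and 1690 lower, and the median of all genes moved from 0.04 to -0.08. Here and below, that setting scaled by the raw totals, without the TMM scaling of the main fit, so both changes act together.

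**Figure D2:**
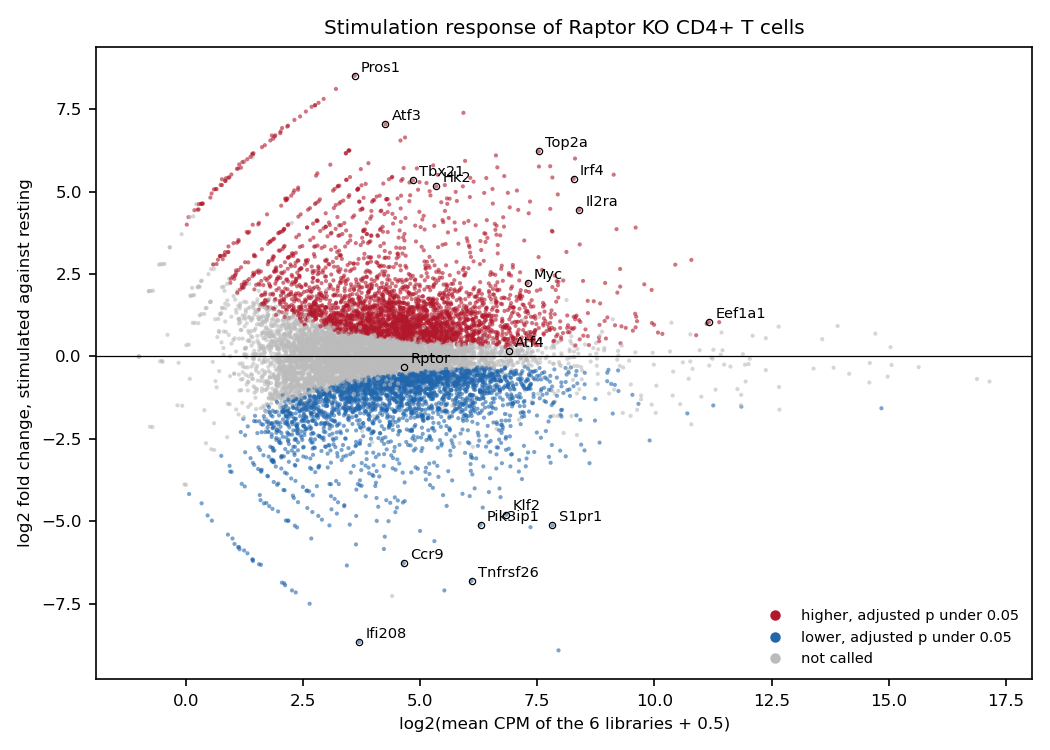
Each point is 1 of 10493 genes, with its mean level over the 6 libraries on the x axis (log2 of CPM + 0.5) and its log2 fold change, stimulated against resting, on the y axis. Red points (2924) rose and blue points (2529) fell at an adjusted p under 0.05, and Rptor and Atf4 lie among the uncalled genes.

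Single genes are named by their log2 fold change, and a value in parentheses after a gene is that fold change, with its standard error after ±. Among protein-coding genes with a mean of at least 10 CPM and no overlap of the groups, predicted genes aside, the 10 widest rises and falls were taken by the fitted value, which for a gene without counts in 1 group is no measured fold. A gene that did not pass the test is not thereby shown to be unchanged. One of these rises was that of Pros1, which encodes the anticoagulant protein S, a ligand that bridges dying cells to TAM receptors (GRCm38 chr16:62854307-62929346). Pros1 had no counts in the 3 resting libraries and 25.6, 25.5 and 18.9 CPM in the stimulated ones. Against a floor of 3 counts over the resting group it was at least 36.2-fold higher (adjusted p = 9.6e-10). Atf3, a stress-induced transcription factor, went from 0, 0.535 and 0 CPM to 35.9, 43.4 and 32.1 CPM, with a log2 fold change of 7.05 ± 0.62 (adjusted p = 1.12e-10). Clspn, the checkpoint adaptor claspin, rose by 6.56 ± 0.39, and Thop1, a cytosolic peptidase, by 6.25 ± 0.61. The other 6 of the 10 widest rises were genes of S phase and mitosis: the histone genes Hist1h3g, Hist1h2af and Hist1h2bp, the topoisomerase gene Top2a, the kinesin gene Kif2c and the repressor gene E2f8. Histone genes are near-identical copies, so reads could be split among them.

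By the same limits, one of the 10 widest falls was that of Ifi208, a member of the interferon-inducible PYHIN family of DNA sensors (GRCm38 chr1:173673675-173698395). Its resting values were 26.7, 34.2 and 14.1 CPM, and the stimulated libraries held no counts, which makes it at least 44.4-fold lower (adjusted p = 4.73e-12). Tnfrsf26, a decoy receptor of the TNF receptor family, went from 126, 127 and 151 CPM to 0, 2.76 and 0.945 CPM, a log2 fold change of -6.81 ± 0.33. Pik3ip1, a transmembrane inhibitor of PI3K, went from 159, 159.9 and 134 CPM to 5.13, 4.14 and 3.78 CPM, a log2 fold change of -5.11 ± 0.23. In both genes every stimulated library lay far below every resting one. The other 7 widest falls were Ccr9 (-6.28), Ifi213 (-5.84), Atp8a2 (-5.71), Tmem71 (-5.61), S1pr1 (-5.13), H2-Ob (-5.10) and Pou6f1 (-4.99). The PYHIN genes are close paralogs, so counts of single members are uncertain.

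The 20 genes of T cell activation all rose, with a median log2 fold change of 3.65. Cd69, which retains activated cells in lymphoid tissue, was read at 10.7, 17.1 and 11.7 CPM at rest and 213, 183 and 225 CPM after stimulation. The log2 fold change was 3.94 ± 0.26 (adjusted p = 3.75e-13). Il2ra, the high-affinity chain of the IL-2 receptor, went from 20, 40.1 and 27.4 CPM to 650.0, 661 and 617 CPM, a log2 fold change of 4.45 ± 0.33 (adjusted p = 5.9e-10). The groups of both genes were far apart. Irf8, an interferon regulatory factor, had the widest change of the list, from 0, 10.7 and 2.35 CPM to 206, 173 and 271 CPM (5.48 ± 0.48). Resting library 2 was the highest of the resting libraries for 19 of the 20 genes. The summed CPM of the list was 275, 431 and 267 at rest and 3389, 3216 and 3495 stimulated.

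Of 25 transcription factor genes of the IRF4, BATF, AP-1 and MYC groups, 15 rose and 4 fell. Irf4, which scales with the strength of antigen receptor signalling, was at 4.67, 33.2 and 2.35 CPM at rest, highest in library 2. It reached 619.8, 631 and 567 CPM after stimulation, a log2 fold change of 5.39 ± 0.55 (adjusted p = 1.03e-07). Myc, the driver of metabolic reprogramming in activated T cells, went from 38.7, 58.8 and 68 CPM to 230.1, 247 and 297 CPM, with a log2 fold change of 2.23 ± 0.29 (adjusted p = 1.81e-06). Neither gene's groups overlapped. The 4 that fell were Jun (-1.22), Id3 (-1.04), and the MYC antagonists Mxd4 (-2.45) and Mxi1 (-1.29).

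Naive quiescence and homing genes moved the other way: 26 of 30 fell and the median was -1.94. Klf2, the factor that keeps naive cells quiescent and recirculating, went from 180.2, 258 and 222 CPM to 6.27, 13.1 and 5.2 CPM, a log2 fold change of -4.80 ± 0.31 (adjusted p = 5.75e-12). Its target S1pr1, the receptor for exit from lymphoid organs, went from 453, 459.9 and 404 CPM to 18.8, 14.5 and 5.2 CPM (-5.13 ± 0.41). Both genes were lower in every stimulated library than in every resting one. The 4 members that did not pass the test were Ccr7 (-0.16), Bach2 (0.18), Satb1 (-0.10) and Dapl1 (1.23), and Dapl1 was called higher without stimulated library 1.

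**Figure D3:**
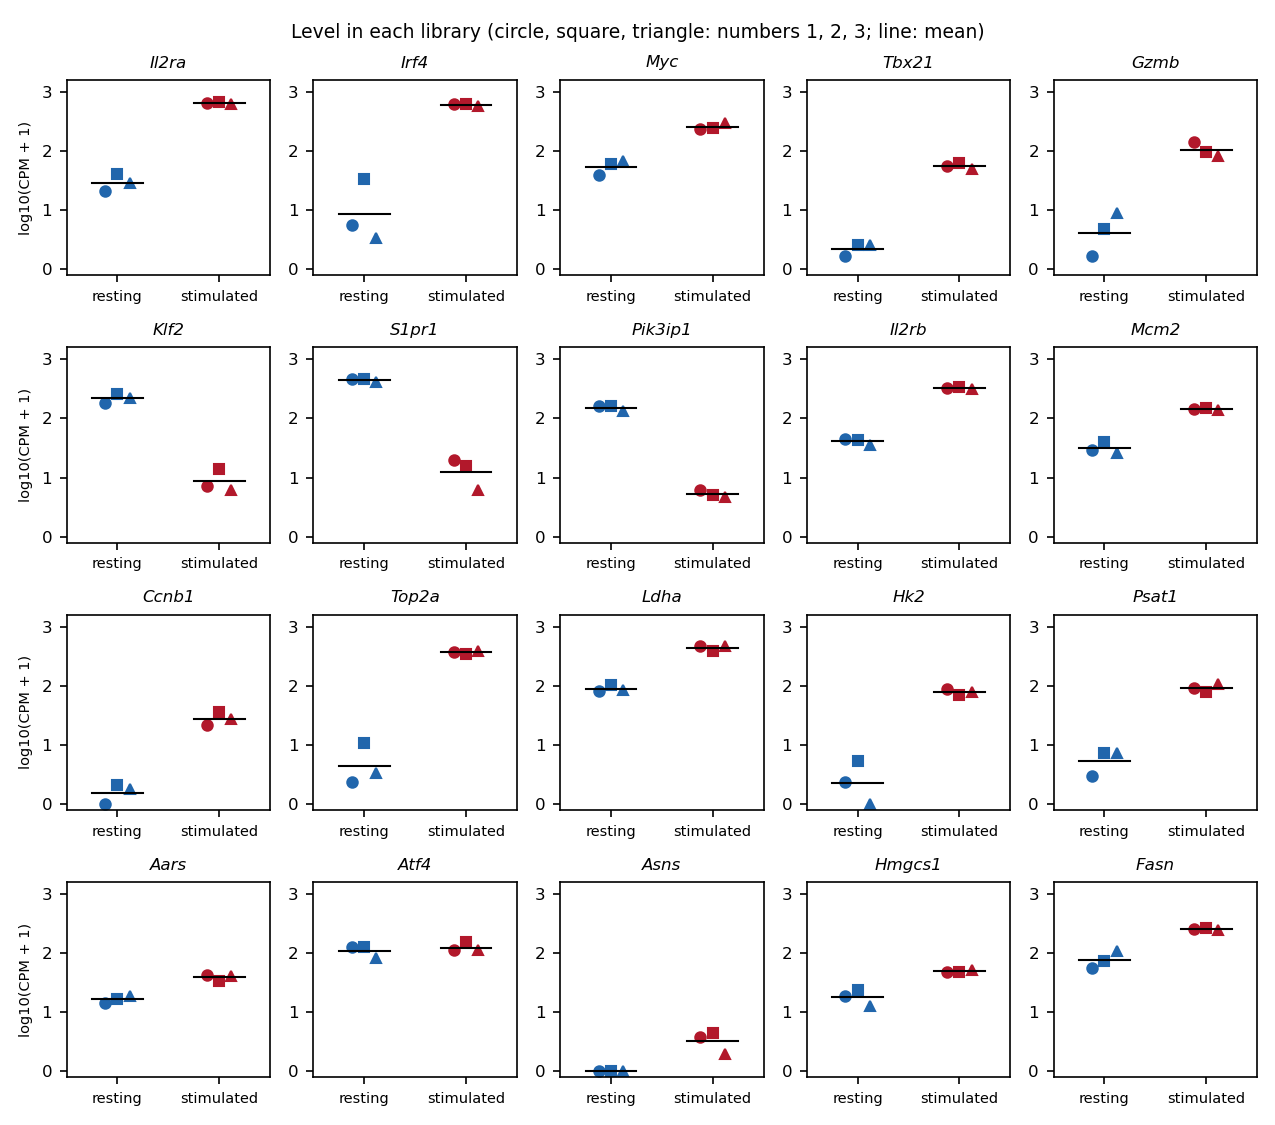
Level of 20 genes as log10(CPM + 1) in each of the 6 libraries, blue for resting and red for stimulated, with symbols for library numbers 1 to 3 and a line at the mean. Il2ra, Irf4 and Hk2 rise, Klf2, S1pr1 and Pik3ip1 fall, and the groups of Atf4 overlap.

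Of 27 genes of the T cell receptor complex and its proximal signalling, 6 rose and 13 fell, with a median of -0.13. Among all tested genes 27.9% rose and 24.1% fell, so the share that rose was near that of all genes. Cd3e, a signalling chain of the receptor, went from 164, 161 and 145 CPM to 101, 87.5 and 84.1 CPM, a log2 fold change of -0.79 ± 0.13 (adjusted p = 4.54e-06). Lck, the kinase that starts the cascade, changed by -0.58 ± 0.12, and Grap2, an adaptor, by -2.71 ± 0.15. With Rn45s in the totals, 2 in place of 6 members were called higher and Lck was not called.

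In a mixed list of IL-2 receptor, STAT5, SOCS and other cytokine receptor genes, 12 of 19 rose, and Jak1 (-1.62) and Ifngr1 (-2.98) fell. Il2rb, the shared signalling chain of the IL-2 and IL-15 receptors, went from 43.4, 42.2 and 35.2 CPM to 326, 341 and 316 CPM, with a log2 fold change of 3.02 ± 0.18 (adjusted p = 1.23e-17). Il12rb1, a chain of the IL-12 and IL-23 receptors, had the widest rise, from 2.67, 5.35 and 0 CPM to 139, 123 and 130.4 CPM (5.42 ± 0.30). The common chain Il2rg overlapped between groups, at 58.1, 63.1 and 70.4 CPM and 76.3, 64.1 and 80.8 CPM. Its log2 fold change was 0.22 ± 0.15 (adjusted p = 0.241).

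Cytokine genes were read in few counts. Of 18 tested, 14 rose and 1, Ltb (-3.40), fell, and Tnfsf8 (0.54) did not pass. Il13 and Il21 also missed the threshold, with no resting counts and 3.99, 3.45 and 3.78 CPM and 4.56, 7.58 and 0.945 CPM stimulated. The list median was 3.66, or 2.90 with genes absent at rest set to their bound. Over all tested genes, 27.9% rose and 24.1% fell. The filter ran over all 27 libraries, so members of this and other lists could pass it through the groups where they are high. Such members tilt the count and the median of a list toward rises. Il2 went from 2, 0.535 and 0.782 CPM to 17.1, 16.5 and 60.9 CPM, with stimulated library 3 above the other 2. Its log2 fold change was 4.85 ± 1.43 (adjusted p = 0.0081), and it was not called without stimulated library 3. Ifng, the signature cytokine of T helper 1 cells, went from 0.668, 0 and 0 CPM to 10.3, 4.14 and 8.03 CPM (adjusted p = 0.0114) and was not called without resting library 2. Il3 was absent at rest and reached 5.13, 2.76 and 1.89 CPM, at least 5.05-fold higher.

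Among 5 chemokine genes, Ccl3 and Ccl4 rose and Ccl5 fell. Ccl4, which encodes a macrophage inflammatory protein, was not seen at rest and reached 14.2, 8.27 and 9.92 CPM, a rise of at least 16.7-fold (adjusted p = 0.00759). Ccl3 lost its call without any 1 of 5 libraries, all but stimulated library 2. Ccl5, typical of memory cells, changed by -4.95. Chemokine and migration receptors were divided, 6 of 16 higher and 5 lower, against 27.9% and 24.1% of all tested genes. Ccr8, a receptor of skin-homing and regulatory T cells, went from 0.668, 8.56 and 0 CPM to 225, 207 and 157 CPM (5.74 ± 0.57). The gut-homing receptor Ccr9 went from 41.4, 51.3 and 53.2 CPM to 1.71, 0 and 0 CPM (-6.28 ± 0.53). Also lower were Itga4 (-4.27), S1pr4 (-3.47), Cxcr5 (-1.96) and Selplg (-1.43), of which Cxcr5 was not called without resting library 1, resting library 2 or stimulated library 2.

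Costimulatory receptor genes rose in 9 of 14 cases, and Slamf6 (-2.35), Cd96 (-0.73) and Cd7 (-4.98) fell. Cd96 was not called without resting library 1 or stimulated library 2. Tnfsf4, the OX40 ligand, had no counts at rest and 2.28, 4.14 and 6.61 CPM stimulated, at least 6.73-fold higher. Inhibitory checkpoint receptors rose in 8 of 12 cases. Pdcd1, encoding PD-1, went from 1.33, 4.28 and 1.56 CPM to 9.68, 10.3 and 17.5 CPM, a log2 fold change of 2.29 ± 0.48 (adjusted p = 0.000108). Pdcd1lg2, a ligand of PD-1, was absent at rest and reached 7.41, 18.6 and 13.7 CPM, at least 20.5-fold higher. Ctla4, which competes for costimulatory ligands, rose by 1.13 ± 0.36, a call lost without resting library 1, and Nt5e (-4.24) fell.

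Lineage factors and effector genes were mixed. Of 15 helper lineage factor genes, 4 rose and 4 fell, near the 27.9% and 24.1% of all tested genes. Tbx21, the T helper 1 factor T-bet, went from 0.668, 1.6 and 1.56 CPM to 55.3, 62 and 48.6 CPM, a log2 fold change of 5.35 ± 0.41 (adjusted p = 7.46e-14). Gata3, the T helper 2 factor, went from 22, 44.9 and 26.6 CPM to 204, 287 and 168 CPM (2.78 ± 0.32). Ikzf2 (1.03) and Ikzf3 (1.63) also rose, while the follicular helper factor Bcl6 (-2.61), Rora (-1.63), Runx1 (-0.88) and Ikzf1 (-0.64) fell. Rora was not called without resting library 1 or stimulated library 3. Of 9 cytotoxic granule genes 4 rose, Gzmb (4.72), Serpinb6b (4.79), Serpinb9 (4.06) and Srgn (1.06), and 2 fell, Prf1 (-3.01) and Ctsw (-1.26), the latter not called without stimulated library 3. These counts also stand beside 27.9% and 24.1% of all tested genes. Gzmb, encoding granzyme B, went from 0.668, 3.74 and 7.82 CPM to 139, 95.1 and 81.2 CPM, and Prf1, encoding perforin, from 16, 22.5 and 16.4 CPM to 3.42, 0.689 and 2.36 CPM.

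Cell cycle genes rose nearly throughout. Of 20 genes of G1 progression, 15 rose, and the inhibitor Cdkn1b (-3.34) and the pocket protein genes Rbl2 (-1.72) and Rb1 (-0.70) fell. Cdk6, a G1 kinase, went from 34.7, 45.5 and 59.4 CPM to 236, 230.2 and 222 CPM, a log2 fold change of 2.31 ± 0.39. E2f8, an atypical E2F repressor of S phase, changed by 6.26 ± 0.56.

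DNA replication genes rose in 41 of 42 cases, and Pole2 (-0.13) was the exception. The median log2 fold change was 2.53. Mcm2, a subunit of the replicative helicase, went from 28, 39 and 25 CPM to 146, 150.3 and 139 CPM, with a log2 fold change of 2.22 ± 0.17 (adjusted p = 2.04e-14). The sliding clamp gene Pcna went from 38, 37.4 and 28.9 CPM to 184, 196 and 227 CPM (2.53 ± 0.18). Chaf1a, of the histone chaperone CAF-1, had the widest change (5.45 ± 0.36).

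Genes of G2 and mitosis rose in 37 of 38 cases, all but Cenpa (0.43), with a median of 4.73, the highest of the 45 lists (4.56 with genes absent at rest set to their bound). Ccnb1, encoding cyclin B1, went from 0, 1.07 and 0.782 CPM to 20.5, 34.5 and 26 CPM, a log2 fold change of 5.24 ± 0.44 (adjusted p = 4.7e-13). Plk1, the mitotic polo-like kinase, went from 0.668, 2.14 and 1.56 CPM to 18.8, 27.6 and 14.6 CPM (3.67 ± 0.45). Top2a, which untangles sister chromatids, went from 1.33, 9.63 and 2.35 CPM to 367, 344 and 384 CPM (6.23 ± 0.38). Resting library 2 was the highest resting library for 23 of the 37 risen genes, which summed to 65.4, 128 and 67.2 CPM at rest and to 1605, 1676 and 1748 CPM stimulated.

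Promoters of the G2 and mitosis, DNA replication, ATF4 response, tRNA synthetase, cholesterol and quiescence lists were searched for 5 motifs on both strands. Other lists were not searched. The window ran from 250 bases before to 50 after the start of the gene (RefSeq, GRCm38.p6). The motifs were CCAAT, bound by NF-Y, TTTGAA, the cell cycle homology region, TTTNNCGC, an E2F-like site, TGATGNAA, the C/EBP-ATF response element, and TCACNCCAC, a sterol response element. Of 31 matched G2 and mitosis promoters, 24 (77.4%) held CCAAT, 24 held TTTGAA and 21 (67.7%) held both. Over all 27025 promoters the shares were 37.9%, 18.1% and 7.12%, and over the 7778 promoters of tested genes 39.4%, 12% and 5.08%. TTTNNCGC stood in 14 of 33 DNA replication promoters (42.4%, against 5.27% of all and 9.55% of those of tested genes), though not in those of Mcm2 and Pcna. CCAAT was not particular to G2 and mitosis: it stood in 22 of 33 DNA replication promoters (66.7%), 15 of 18 cholesterol promoters (83.3%), 9 of 16 ATF4 response promoters (56.2%) and 10 of 27 quiescence promoters (37%). A match is a description of letters, not a bound site.

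Of the G2 and mitosis promoters, 3 are shown for their arrangement of CCAAT and TTTGAA, which are in capitals. They were chosen after the matches were seen, Cdc20 (a log2 fold change of 3.85 ± 0.40) encodes an activator of the anaphase-promoting complex, and Ccnb1 holds CCAAT at 2 places and no TTTGAA. The windows are chr13:100786437-100786736 on the minus strand, chr7:122159185-122159484 on the plus strand and chr4:118437294-118437593 on the minus strand, 5′ to 3′.
Ccnb1: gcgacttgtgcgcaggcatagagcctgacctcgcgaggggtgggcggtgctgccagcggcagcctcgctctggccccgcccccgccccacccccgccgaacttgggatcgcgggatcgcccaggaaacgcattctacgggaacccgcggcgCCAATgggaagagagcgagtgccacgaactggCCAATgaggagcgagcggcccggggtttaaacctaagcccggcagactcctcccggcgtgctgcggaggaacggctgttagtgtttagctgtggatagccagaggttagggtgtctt
Plk1: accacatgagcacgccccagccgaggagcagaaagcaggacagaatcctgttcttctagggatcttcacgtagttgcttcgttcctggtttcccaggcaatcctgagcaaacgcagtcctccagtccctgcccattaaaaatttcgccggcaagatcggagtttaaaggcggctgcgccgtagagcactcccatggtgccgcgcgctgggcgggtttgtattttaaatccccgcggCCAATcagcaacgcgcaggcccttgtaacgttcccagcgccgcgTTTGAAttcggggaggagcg
Cdc20: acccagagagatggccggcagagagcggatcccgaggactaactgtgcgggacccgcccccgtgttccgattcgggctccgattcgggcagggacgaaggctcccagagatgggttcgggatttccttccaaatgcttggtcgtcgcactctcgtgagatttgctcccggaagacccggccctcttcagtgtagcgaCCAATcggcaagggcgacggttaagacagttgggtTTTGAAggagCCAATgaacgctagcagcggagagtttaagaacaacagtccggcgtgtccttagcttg

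Genes of growth and protein synthesis rose together but by smaller amounts. Of 57 nucleolar ribosome biogenesis genes, 49 rose, with a median of 1.20. Ncl, encoding nucleolin, went from 210.3, 209 and 259.6 CPM to 676, 599.7 and 794 CPM, a log2 fold change of 1.61 ± 0.18 (adjusted p = 3.5e-10). Nop56, of the box C/D snoRNA particle, went from 64.7, 66.8 and 52.4 CPM to 152, 170.3 and 159 CPM (1.38 ± 0.14). Cytosolic ribosomal protein genes rose in 26 of 42 cases, with a median of 0.53. Rps6, the substrate of S6 kinase, went from 328, 301 and 210.3 CPM to 448, 375 and 479 CPM (0.63 ± 0.22), a call lost without resting library 3 or stimulated library 3. These counts depended on the scaling: with Rn45s in the totals, 31 ribosome biogenesis and 6 ribosomal protein genes were called higher. Ribosomal protein genes also have many processed pseudogenes, which leaves their counts uncertain.

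Translation factor genes rose in 20 of 23 cases, and the inhibitors Eif4ebp2 (-0.82) and Pdcd4 (-1.10) fell. Eef1a1, the elongation factor that delivers aminoacyl-tRNA, went from 1466, 1496 and 1536 CPM to 3121, 2799.9 and 3349 CPM (1.04 ± 0.19). Eif4ebp1, the inhibitor of cap-dependent translation that mTORC1 phosphorylates, overlapped between groups at 2, 2.14 and 0 CPM and 1.71, 5.51 and 5.67 CPM. Its call (adjusted p = 0.0352) was lost without resting library 3, stimulated library 2 or stimulated library 3. Cytosolic tRNA synthetase genes rose in 18 of 20 cases, all but Sars (0.18) and Tars (0.47), with a median of 1.21. Aars, for alanine, went from 13.3, 16 and 18 CPM to 41.6, 33.1 and 40.6 CPM (1.29 ± 0.19), and Kars, for lysine, had the widest change (1.97 ± 0.17). With Rn45s in the totals, 13 translation factor and 12 synthetase genes were called higher.

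In the ATF4 response list most members did not pass the test. ATF4 is a transcription factor that induces amino acid synthesis and uptake under stress and downstream of mTORC1. Of 18 tested targets and regulators, 4 rose, 1 fell and 13 did not pass, with a median of 0.88 (0.79 with genes absent at rest set to their bound). Among all tested genes 27.9% rose and 24.1% fell. Other genes of amino acid synthesis and uptake, among them Psat1 and Slc7a5, stand in the lists given below. Atf4 itself stood at 124, 127 and 82.9 CPM at rest and 111, 151 and 112 CPM stimulated, and the groups overlapped. Its log2 fold change was 0.15 ± 0.17 (adjusted p = 0.461). Asns, asparagine synthetase, had no resting counts and 2.85, 3.45 and 0.945 CPM stimulated, at least 3.74-fold higher (adjusted p = 0.00367). The other members that rose were Gpt2 (2.24), Aldh18a1 (0.74) and Pycr1, which had no resting counts and was at least 2.14-fold higher. Pycr1 lost its call without resting library 2, and Gpt2 lost its call without resting library 1, resting library 2, stimulated library 1 or stimulated library 2. Trib3, a pseudokinase that restrains ATF4, was the member that fell, from 9.35, 9.09 and 6.25 CPM to 2.28, 0.689 and 0.945 CPM (-2.61 ± 0.53, adjusted p = 6.74e-05). The filter ran over all 27 libraries, so members could pass it through counts in other groups. With the compared groups fitted alone, only 4 members had enough counts, and 1 of them was called higher.

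The motif TGATGNAA stood in 5 of 16 matched ATF4 response promoters (31.2%) and 5 of 12 tRNA synthetase promoters (41.7%), against 4.06% of all promoters and 2.2% of those of tested genes. Asns (chr6:7693160-7693459, minus strand) and Aars (chr8:111033592-111033891, plus strand) are shown as members with a match, in capitals on either strand.
Asns: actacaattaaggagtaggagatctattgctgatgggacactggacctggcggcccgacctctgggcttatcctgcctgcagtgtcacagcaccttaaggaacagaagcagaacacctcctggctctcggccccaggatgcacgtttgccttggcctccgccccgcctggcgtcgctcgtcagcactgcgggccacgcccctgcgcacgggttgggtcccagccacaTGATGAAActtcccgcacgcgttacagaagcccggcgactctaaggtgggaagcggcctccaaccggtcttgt
Aars: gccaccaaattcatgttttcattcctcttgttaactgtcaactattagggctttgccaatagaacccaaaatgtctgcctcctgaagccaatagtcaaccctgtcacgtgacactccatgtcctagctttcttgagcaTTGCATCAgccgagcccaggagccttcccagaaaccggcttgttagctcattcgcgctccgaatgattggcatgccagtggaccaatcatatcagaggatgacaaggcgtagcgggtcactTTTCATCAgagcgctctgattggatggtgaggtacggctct

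Serine and one-carbon genes rose in 10 of 13 cases, with a median of 2.05. Psat1, of serine synthesis, went from 2, 6.42 and 6.25 CPM to 91.7, 77.9 and 106 CPM, a log2 fold change of 4.21 ± 0.22 (adjusted p = 3.14e-19). Phgdh, the first enzyme of that path, went from 7.34, 9.63 and 16.4 CPM to 33.6, 29.6 and 29.8 CPM (1.51 ± 0.30). Tyms, which makes thymidylate, changed by 4.39 ± 0.32, and Psph (0.59) did not pass. Nutrient transporter genes rose in 14 of 20 cases. Slc7a5, the large neutral amino acid carrier, went from 11.3, 20.9 and 15.6 CPM to 71.8, 75.1 and 73.7 CPM (2.18 ± 0.30), the glutamine carrier Slc1a5 changed by 0.89 ± 0.14, and Slc38a2 (-0.66) and Slc20a1 (-0.89) fell. Nucleotide synthesis genes rose in 19 of 23 cases. Cad, the first enzyme of pyrimidine synthesis, went from 40.7, 34.8 and 31.3 CPM to 145, 139 and 191 CPM (2.15 ± 0.15), and the ribonucleotide reductase subunit Rrm2 from 2, 5.88 and 0.782 CPM to 116, 116 and 118 CPM (5.17 ± 0.29).

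Glycolysis and lactate genes rose in 17 of 21 cases, with a median of 1.36, and Pfkfb4 (-1.30) fell. Ldha, lactate dehydrogenase A, went from 79.4, 104 and 83.7 CPM to 460.3, 387 and 476 CPM, a log2 fold change of 2.31 ± 0.15 (adjusted p = 9.6e-17). Hk2, the inducible hexokinase, went from 1.33, 4.28 and 0 CPM to 87.7, 68.2 and 78.9 CPM (5.16 ± 0.31). Neither gene's groups overlapped. The fall of Pfkfb4 was not called without resting library 1, resting library 2, stimulated library 1 or stimulated library 3. Of 14 hypoxia response genes 7 rose, among them Hif1a (1.39 ± 0.20), and Ndrg1 (-1.20), Kdm3a (-0.76) and Mxi1 (-1.29) fell. Among all tested genes 27.9% rose and 24.1% fell. Pentose phosphate genes rose in 5 of 9 cases, Prps1 (1.63), Pgd (1.59), Tkt (1.49), Rpia (0.88) and G6pdx (0.73). G6pdx was not called without resting library 2 or stimulated library 3, nor Rpia without resting library 3. With Rn45s in the totals, 3 pentose phosphate genes were called higher.

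Lipid synthesis genes rose in part. Of 26 cholesterol genes, 15 rose, 9 with Rn45s in the totals, and the median was 0.84. Hmgcs1, of the mevalonate path, went from 18, 22.5 and 11.7 CPM to 47.3, 47.6 and 51.5 CPM, a log2 fold change of 1.45 ± 0.18 (adjusted p = 5.28e-09). The cholesterol exporter Abcg1 was the 1 member that fell, from 30.7, 38.5 and 45.3 CPM to 3.42, 2.76 and 4.25 CPM (-3.39 ± 0.38). Of 17 fatty acid synthesis genes, 10 rose and 2, Elovl5 (-0.90) and Elovl6 (-0.83), fell. Elovl6 was not called without resting library 1, resting library 2, stimulated library 1 or stimulated library 3. Fasn, fatty acid synthase, went from 55.4, 72.2 and 106 CPM to 257, 263 and 243 CPM (1.71 ± 0.22). Of 14 fatty acid oxidation genes, 2 rose, Hadha (0.90) and Acaa2 (0.95), and 3 fell, among them Hadhb (-0.70) and Pdk1 (-1.95), the latter encoding a kinase that blocks pyruvate entry to the TCA cycle. These counts stand beside 27.9% higher and 24.1% lower among all tested genes. Acaa2 was not called without resting library 1, nor Hadhb without resting library 3. The sterol motif TCACNCCAC stood in 1 of 18 matched cholesterol promoters (5.56%, against 1.22% of all and 1.04% of those of tested genes), that of Hmgcs1 (chr13:119690101-119690400, plus strand), shown with the match in capitals.
Hmgcs1: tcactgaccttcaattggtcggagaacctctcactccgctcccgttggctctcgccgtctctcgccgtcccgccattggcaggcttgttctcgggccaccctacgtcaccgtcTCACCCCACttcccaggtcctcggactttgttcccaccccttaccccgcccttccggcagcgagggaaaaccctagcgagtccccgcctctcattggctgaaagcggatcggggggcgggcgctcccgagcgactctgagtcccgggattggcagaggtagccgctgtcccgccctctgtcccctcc

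Mitochondrial genes rose by modest amounts. Nuclear respiratory chain genes rose in 29 of 34 cases (median 1.14), TCA cycle and glutamine genes in 17 of 27 (median 0.85) and mitochondrial ribosomal protein genes in 19 of 34 (median 0.73). Cox5a, of complex IV, went from 2.67, 4.81 and 5.47 CPM to 20.5, 20 and 17 CPM (2.13 ± 0.31), and citrate synthase, Cs, from 54.1, 65.8 and 52.4 CPM to 125, 116 and 129.9 CPM (1.10 ± 0.13). The cytosolic isocitrate dehydrogenase Idh1 fell (-2.81 ± 0.62). Of 8 transcripts of the mitochondrial genome 6 rose, led by mt-Nd3 (1.21 ± 0.36), and mt-Co1 (-0.07 ± 0.26) and mt-Nd4 (0.63 ± 0.39) did not pass. With Rn45s in the totals, the risen counts were 19, 7, 6 and 2. Without stimulated library 3, 12 mitochondrial ribosomal protein genes were called higher.

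Protein quality control rose as well. Proteasome genes rose in 35 of 38 cases, 21 with Rn45s in the totals, with a median of 1.21, and Psmd4 (0.43), Psma3 (0.29) and Psmb10 (-0.08) did not pass. Psma1, a core subunit, went from 21.4, 17.6 and 18 CPM to 52.4, 52.4 and 69 CPM (1.62 ± 0.24). Cytosolic chaperone genes rose in 18 of 20 cases, with a median of 1.58. Hspd1, the mitochondrial chaperonin HSP60, went from 28.7, 35.8 and 36 CPM to 213, 179 and 262 CPM (2.70 ± 0.20), and Hspa8, the constitutive HSP70, from 165, 172 and 204 CPM to 575, 548 and 622 CPM (1.69 ± 0.15). Of 24 ER chaperone and unfolded protein response genes, 15 rose and 3, Ero1lb (-1.26), Herpud1 (-1.03) and Dnajc3 (-0.42), fell. Without resting library 3 only Herpud1 of these was called, and Dnajc3 kept its call only where stimulated library 1 was the library left out. Hspa5, encoding BiP, went from 52.1, 67.4 and 71.1 CPM to 224, 222 and 229.5 CPM (1.83 ± 0.15). Lysosome and autophagy genes were divided, 5 of 27 higher and 9 lower, against 27.9% and 24.1% of all tested genes. Those higher were Fnip2 (2.38), Atp6v0a1 (2.28), Ctsb (0.98), Atp6v1a (1.16) and Fnip1 (1.29). The protease gene Ctsd went from 66.8, 75.4 and 67.2 CPM to 16.5, 18.6 and 13.2 CPM (-2.13 ± 0.19).

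Of 25 mTORC1 and mTORC2 subunits and sensors, 2 rose and 7 fell, against 27.9% and 24.1% of all tested genes, so the share that fell was near that of all genes. Rictor, the subunit that defines mTORC2, went from 131, 125 and 167 CPM to 82.6, 64.1 and 52 CPM, a log2 fold change of -1.09 ± 0.15 (adjusted p = 9.34e-08). The amino acid and stress sensor Sesn1 fell most (-2.85 ± 0.29), and Mtor, the kinase itself, was at 36, 40.1 and 35.2 CPM and 37, 44.1 and 45.8 CPM (0.18 ± 0.16). The 2 that rose were Sesn3 (0.77) and Rps6ka1 (0.71), and Sesn3 lost its call without any 1 of 5 libraries, all but stimulated library 3. Of 18 PI3K, Akt and growth factor receptor genes, 1 rose, Akt1 (1.12), and 11 fell, with Pik3r5 the widest (-2.86 ± 0.31). With Rn45s in the totals, 4 mTOR and 7 PI3K genes were called lower.

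In the remaining lists, p53 targets rose in 9 of 18 cases and fell in 4, Btg2 (-2.89), Sesn1 (-2.85), Trp53inp1 (-2.40) and Bbc3 (-0.99). Among all tested genes 27.9% rose and 24.1% fell. With Rn45s in the totals 4 p53 targets were called higher. Cdkn1a, the CDK inhibitor p21, went from 0, 1.6 and 0 CPM to 16.5, 23.4 and 17 CPM (4.73 ± 0.92), while Mdm2 overlapped between groups at 41.4, 46.5 and 50 CPM and 42.7, 55.8 and 43.9 CPM (0.04 ± 0.16). In the BCL2 family the survival gene Bcl2l1 went from 7.34, 10.2 and 7.82 CPM to 128, 118 and 162 CPM (3.98 ± 0.19) and the death gene Bcl2l11 from 48.7, 49.2 and 38.3 CPM to 9.68, 13.8 and 14.2 CPM (-1.86 ± 0.30). Interferon-stimulated genes rose in 9 of 21 cases and fell in 5, against 27.9% and 24.1% of all tested genes, with Iigp1 the widest rise (4.62 ± 0.90). The 5 that fell were Irf7 (-1.66), Xaf1 (-1.65), Gbp7 (-0.78), Ly6e (-0.78) and Samhd1 (-0.84). Of these 2 were called lower without stimulated library 3, and 3 without resting library 1 or resting library 2. The maintenance methyltransferase partner Uhrf1 rose (4.96 ± 0.35), as did the Polycomb methyltransferase Ezh2 (3.02 ± 0.19), and Ezh1, its paralog, fell (-1.86). Tfrc, the transferrin receptor, went from 19.4, 42.2 and 28.9 CPM to 448, 351 and 468 CPM (3.79 ± 0.26), while the ferritin gene Fth1 went from 121, 140.1 and 134 CPM to 71.2, 83.4 and 81.7 CPM (-0.74 ± 0.14).

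**Figure D4:**
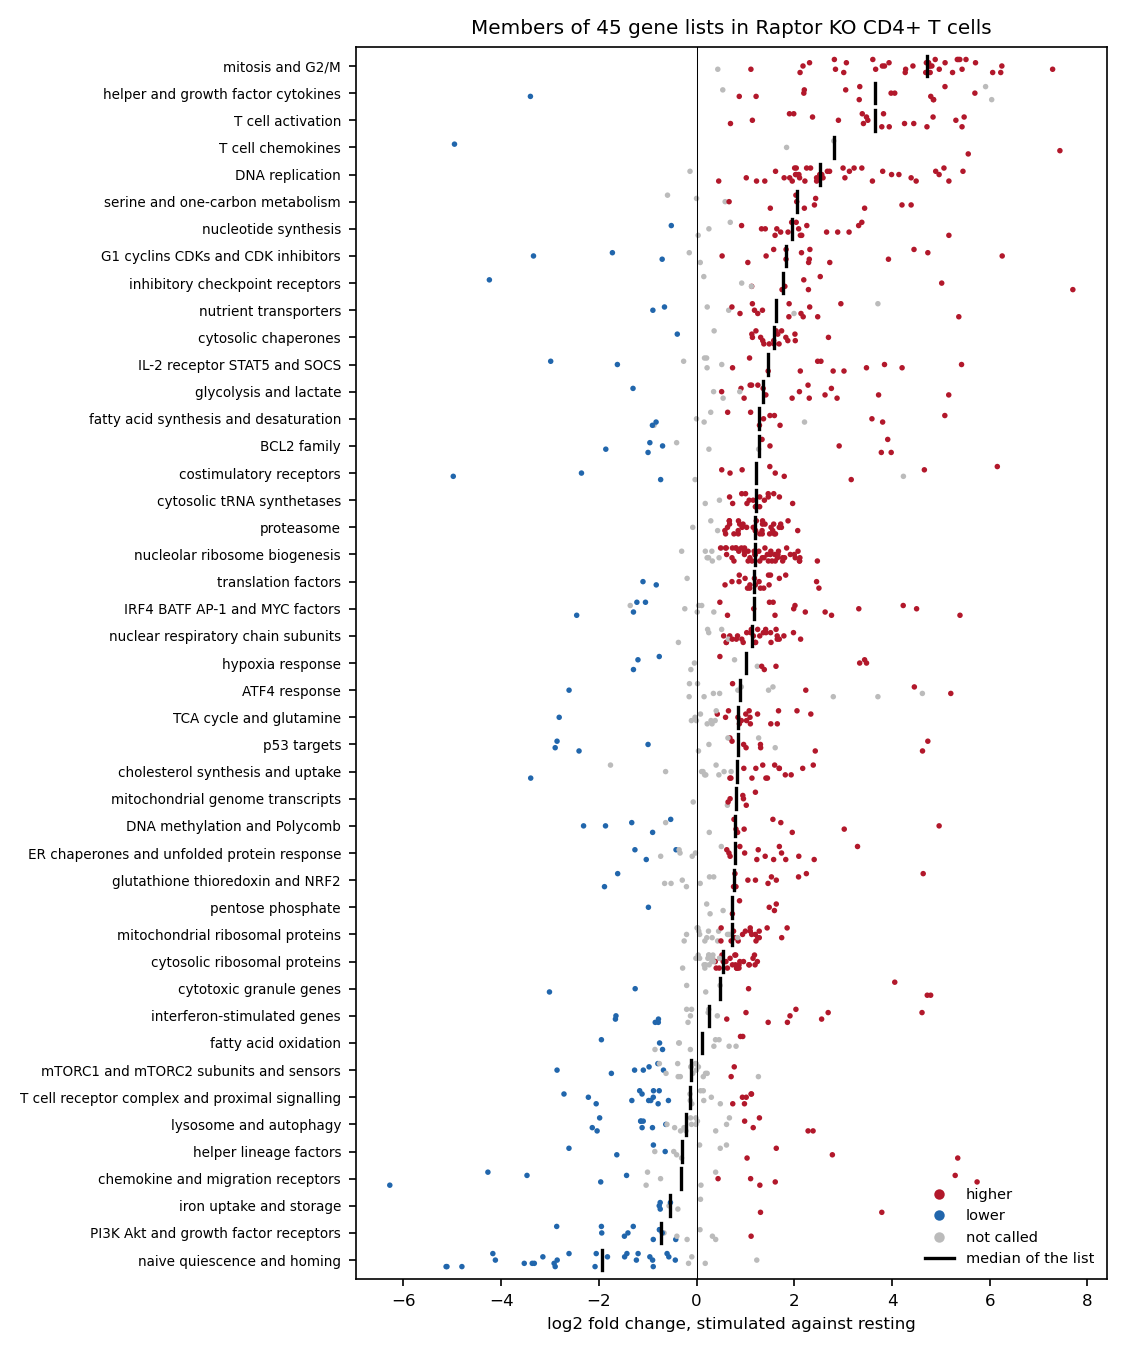
Log2 fold change, stimulated against resting, of every tested member of 45 gene lists, red for higher, blue for lower and grey for not called, with a black line at each list's median. The lists are ordered by median, from 4.73 for mitosis and G2/M to -1.94 for naive quiescence and homing.

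The next groups of genes were picked after their values were seen and are given without a test. Of 54 replication-dependent histone genes, 49 rose and 2 fell, with a median of 3.95. Over all tested genes 27.9% rose and 24.1% fell. Among non-coding classes, 60 of 125 antisense genes fell (48%) and 11 rose (8.8%), and 55 of 147 lincRNA genes fell (37.4%) and 20 rose (13.6%). Of 117 snoRNA genes 15 fell (12.8%) and 2 rose (1.71%). Of 47 snRNA genes 4 rose (8.51%) and 2 fell (4.26%), with a median of -0.32. Of 86 processed pseudogenes 11 rose (12.8%) and 7 fell (8.14%). The snoRNA, snRNA and pseudogene classes thus had smaller shares of rises and of falls than all tested genes. Since the strand setting of the counting is not given in the sources used here, reads of an antisense gene and its partner may be mixed.

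The response was set beside that of WT CD4+ cells, where 6811 genes (64.9%) were called, 3397 higher (32.4%) and 3414 lower (32.5%). In both genotypes 4697 genes were called with the same direction, 86.1% of the Raptor KO calls and 69% of the WT calls, and 23 with opposite directions. A direct test of the difference, the interaction of genotype and stimulation, called 611 genes (5.82%), of which 375 (3.57%) were above and 236 (2.25%) below the WT effect. Genes that rose in Raptor KO cells were below the WT effect in 142 cases and above it in 56. Genes that fell were above it, meaning a smaller fall, in 184 cases and below it in 34. With Rn45s in the totals 24 genes were called, 5 above and 19 below, and DESeq2 called 512, 259 above and 253 below. Without WT stimulated library 3 the count was 375, and without Raptor KO stimulated library 1 it was 394.

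**Figure D5:**
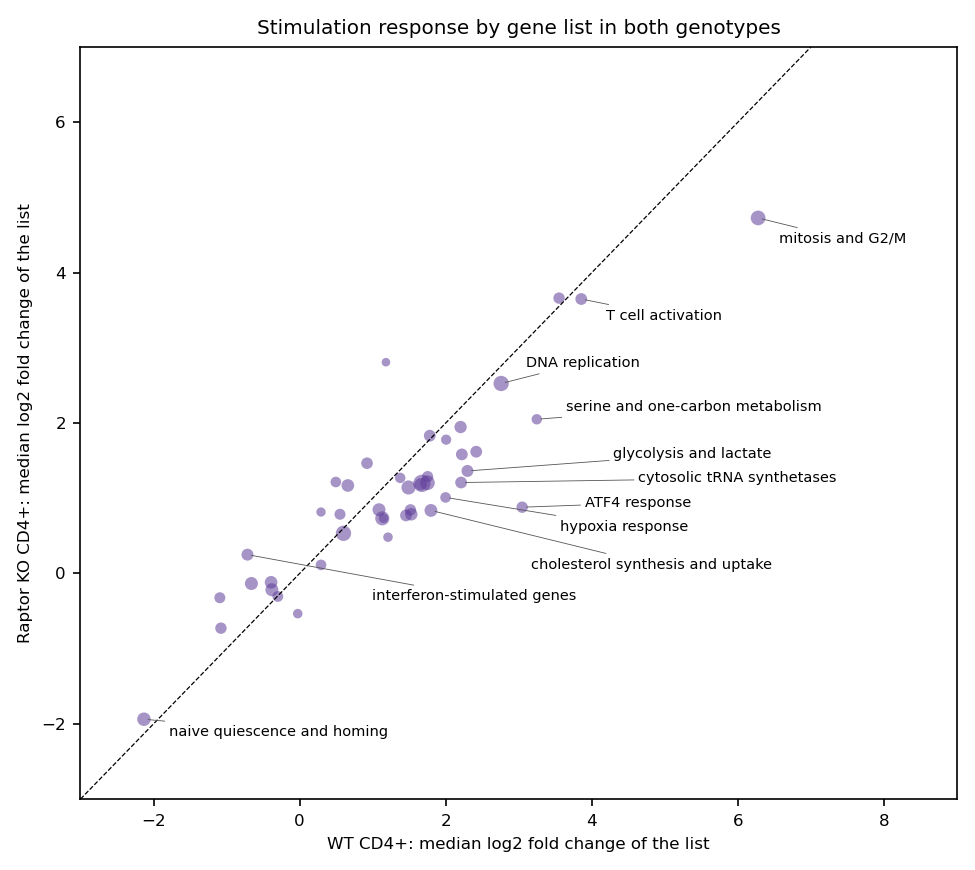
Median log2 fold change of each of 45 gene lists in WT CD4+ cells (x axis) and Raptor KO CD4+ cells (y axis), with point size growing with the number of tested members and a dashed line of equality. The ATF4 response list lies far below the line, at 3.05 in WT and 0.88 in Raptor KO cells. Its members passed a filter over all 27 libraries, and 4 had no counts in 1 of the Raptor KO groups.

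Differences below the WT effect, called in 2.25% of all tested genes, were called in 10 of 20 tRNA synthetase genes, 12 of 20 cytosolic chaperone genes, 8 of 21 glycolysis genes, 9 of 38 proteasome genes, 7 of 26 cholesterol genes and 7 of 57 ribosome biogenesis genes. They were also called in 5 of 13 serine and one-carbon genes, 5 of 17 fatty acid synthesis genes and 6 of 24 ER chaperone and unfolded protein response genes. Differences above WT, called in 3.57% of all tested genes, were called in 5 of 21 interferon-stimulated genes and 5 of 30 quiescence and homing genes. Of the quiescence and homing genes 2 were below WT. Of 18 ATF4 response genes, 15 rose in WT cells (median 3.05), and 4 differences were called below WT: Trib3 (-2.97), Sesn2 (-2.79), Aldh18a1 (-1.86) and Atf4 (-1.14). Members could pass the filter through counts in WT stimulated cells, so the Raptor KO median of this list includes genes with few counts there. For Aars the WT log2 fold change was 3.26 against 1.29 in Raptor KO cells, a difference of -1.97 ± 0.27 (adjusted p = 1.59e-05). For Ldha it was 3.38 against 2.31, a difference of -1.08 ± 0.20 (adjusted p = 0.00058). In the activation list 1 of 20 genes differed, Tfrc (-1.20), a call lost in 8 of the 12 fits that each left out 1 of the 12 libraries. Of 38 G2 and mitosis genes 1 differed, Ccna2 (-2.37), with a list median of 6.28 in WT. The Ccna2 means at rest and stimulated were 0.85 and 86.3 CPM in WT cells and 3.14 and 63.3 CPM in Raptor KO cells. Its resting levels were few counts, and the call was lost in 3 of the 12 fits that each left out 1 library.

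Among protein-coding genes with a mean of at least 10 CPM over the 12 CD4+ libraries, the widest fitted differences below WT were those of Gzmb, Irf4, Bcat1, Akap1 and Scd2. Scd2, a fatty acid desaturase, went from 5.34, 11.8 and 11.7 CPM to 115, 134 and 102 CPM in Raptor KO cells, a log2 fold change of 3.59 ± 0.37 against 6.44 in WT (difference -2.85 ± 0.53, adjusted p = 0.0029). Gzmb differed by -4.85 ± 1.14 (adjusted p = 0.0167), a call lost without Raptor KO resting library 3. Its resting and stimulated means were 0.171 and 202 CPM in WT cells and 4.08 and 105 CPM in Raptor KO cells. Irf4 differed by -3.91 ± 1.06 (adjusted p = 0.0363), a call kept only without WT stimulated library 1, Raptor KO resting library 1 or Raptor KO resting library 3. The Irf4 means were 0.745 and 547 CPM in WT cells and 13.4 and 606 CPM in Raptor KO cells. Its stimulated mean was thus not lower in Raptor KO cells, and the resting levels, few counts in WT cells, carried the difference. By the same limits, the widest fitted differences above WT were those of Ifi209, Slc14a1, Litaf, Lrrc32 and Zbtb20. Zbtb20, a transcriptional repressor, went from 126, 111 and 94.6 CPM to 20.5, 19.3 and 15.1 CPM (-2.60 ± 0.20) against -5.88 in WT, a difference of 3.28 ± 0.38 (adjusted p = 2.08e-07). Slc14a1, a urea transporter, stood at 13.3, 12.8 and 13.3 CPM and 13.7, 8.27 and 13.2 CPM, overlapping, against a WT change of -3.86 (difference 3.72 ± 0.53, adjusted p = 2.11e-05). Litaf, a regulator of endosomal sorting, went from 1.33, 1.07 and 0 CPM to 51.3, 41.4 and 52.4 CPM (5.72 ± 0.39) against 2.34 in WT.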

How the data were processed

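Whole-number counts per gene were deposited by the authors as 1 table of 27 libraries. The aligner was STAR 2.6.0a and the genome GRCm38, per the submitters' processing notes. For the counting program, its annotation and its use of strand, the setting is not given in the sources used here. Gene classes and positions came from GENCODE vM21 (GRCm38), which matched 26765 of 26802 rows.

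Rn45s (81.1% to 87% of counts here) was left out. Genes were kept with edgeR's filterByExpr (minimum count 10, minimum total 15), scaled by TMM and fitted with edgeR 4.0.16 (R 4.3.3) quasi-likelihood models, with 1 mean for each of 9 groups over all 27 libraries. Both the stimulation effect and its difference from WT used Benjamini-Hochberg adjustment at 0.05. CPM are counts scaled to 1e6 over tested genes after TMM. Standard errors are the log2 fold change divided by the square root of F. Folds against a group without counts use a floor of 3 counts over the group, which covers counting error only. The alternatives tried were median-ratio size factors, no filter, a stricter filter (5 CPM in 3 libraries), a minimum fold change of 1.5, Rn45s in the totals, protein-coding genes only, the compared groups alone, a replicate block, limma-voom (3.58.1), DESeq2 (1.42.0) and leaving out each library. The fit with Rn45s in the totals used raw totals and no TMM factors. The procedure was tested on simulated data.

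The comparison and the 45 gene lists were chosen with earlier results of these data known. Named genes are Rptor, Rictor, Cd4, Cd8a and Cd8b1, the first 2 and the most changed called gene of each list, the 10 largest rises and falls among called protein-coding genes without overlap and with a mean of at least 10 CPM (no predicted genes, pseudogenes or receptor segments), and, by these limits but for the overlap, the 5 largest differences from WT in each direction. Genes that spell out small counts, and the members named beside them, fall outside this rule and were named after their values were seen. Some genes that the rule names are not reported here.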

Additional observations from a re-analysis of the deposited data

Results flagged for a closer look

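Each gene below had a stimulation effect in Raptor KO CD4+ cells that differed from that in WT CD4+ cells by edgeR's interaction test (adjusted p under 0.05). Values are log2 differences of the stimulation effect, Raptor KO minus WT, and not of the stimulated level. Of the genes examined 60 are listed, 21 above and 39 below WT. The call was kept for 29 of the 60 when each of the 12 libraries was left out in turn. It was kept for 12 with Rn45s in the library totals and no TMM.

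Below WT and kept without each of the 12 libraries in turn were genes of amino acid supply, tRNA charging and the ATF4 response, Trib3 (-2.97), Phgdh (-2.27), Aars (-1.97), Tars (-1.95), Slc7a5 (-1.92), Psph (-1.90), Aldh18a1 (-1.86), Nars (-1.65), Atf4 (-1.14) and Sars (-0.92). So were the metabolic genes Scd2 (-2.85), Slc16a1 (-1.60), Fasn (-1.28), Ldha (-1.08) and Cad (-1.06), and Zmat3 (-1.57), Hspd1 (-1.54), Ctsd (-1.11), Herpud1 (-0.98) and Tcf7 (-0.95). Above WT and kept were Slc14a1 (3.72), Litaf (3.38), Lrrc32 (3.30), Zbtb20 (3.28), Fnip1 (1.80), Pdcd4 (1.36), Btg1 (1.12), Irf1 (1.00) and Parp14 (0.96).

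The other 31 lost their call without at least 1 library. Below WT these were Gzmb (-4.85), Irf4 (-3.91), Bcat1 (-3.57), Akap1 (-2.90), Sesn2 (-2.79), Ccna2 (-2.37), Psat1 (-1.69), Shmt2 (-1.21), Tfrc (-1.20), Mthfd2 (-1.15), Hmgcs1 (-1.13), Slc2a1 (-1.12), Psma3 (-1.01), Ncl (-0.93), Impdh1 (-0.88), Tkt (-0.88), Hspa8 (-0.78), Mdm2 (-0.73) and Btg2 (-0.71). Above WT they were Ifi209 (4.99), Klf2 (1.96), Zbp1 (1.80), Sesn3 (1.66), Klf3 (1.37), Irf9 (1.36), Rasgrp2 (1.34), Cd96 (1.28), Ctss (1.27), Pecam1 (1.19), Fbxl5 (0.83) and Il6ra (0.83).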

How the results depend on the processing

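No called gene among those examined singly changed direction under any alternative run. A minimum fold change of 1.5 left 3291 genes called for stimulation (1867 higher, 1424 lower) and 80 for the difference from WT (54 above, 26 below), and is a stricter test by construction. Rn45s in the totals, where TMM was also dropped, left 3261 (1571 and 1690) and 24 (5 and 19). The latter moved the share above WT from 61% to 21%, and the cause was not tested. Of 229 genes examined singly and called for stimulation, 42 lost the call there. Leaving out 1 library gave 4729 to 5108 genes for stimulation (2582 to 2794 higher, 2147 to 2349 lower) and 375 to 664 for the difference (219 to 382 above, 152 to 300 below). The difference counted 375 genes without WT stimulated library 3 and 394 without Raptor KO stimulated library 1. Genes above WT numbered 231 without WT resting library 3, and genes below WT 152 without Raptor KO stimulated library 2. With the replicate block, 5573 genes were called for stimulation and 826 for the difference. Titles give libraries of the same number a shared code, in both groups and both genotypes, and do not say what it marks. Between resting and stimulated Raptor KO libraries of the same number, deviations of log CPM from the group mean correlated at 0.213, 0.0246 and 0.0044. Between libraries of different numbers the values ran from -0.12 to 0.0945, the highest for library 2 at rest with stimulated library 3. The main fit has no block, and with 3 libraries a group these values cannot show whether the numbers pair the libraries. Genes near 1 CPM rest on few counts, as do several cytokine genes.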

Other observations

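Gm10800, a predicted gene chosen after its values were seen, stood at 11.3, 1.07 and 1468 CPM in resting libraries 1 to 3 and at 1.14, 2.07 and 0 CPM in the stimulated ones. It was called lower (log2 fold change -8.92 ± 3.08, adjusted p = 0.0212 by edgeR), and the call was lost without resting library 3, where the log2 fold change was -2.52, and without any 1 of the 3 stimulated libraries.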
